A study of Mus musculus with 4 samples.

Results

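The 10 genes described here mark type 2 conventional dendritic cells (cDC2s) or help to make them, and they were measured by bulk RNA-seq in CD24+ emergency progenitors (EPs). They are the transcription factors (TFs) Irf4, Klf4 and Zeb2 and the surface proteins Sirpa, Clec4a4, Clec10a, Mgl2, Cd209a, Cd4 and Esam. Each was found by its exact gene symbol among the 40213 symbols of the deposited count files, and the counts of its transcripts were summed. All 10 had a count in every library, and 9 passed the filter on low counts, Esam being the exception. The 4 libraries came from spleens of mice 7 to 10 weeks of age that had all received Flt3L-Ig intraperitoneally, 10 μg on day 0 and again on day 3. EPs, which are defined by CD11c and CD117, were sorted for CD24 on day 9. WT 1 and WT 2 came from TopBP1 fl/fl littermates without Cre, and cKO 1 and cKO 2 are the libraries labelled TopBP1cKO (TopBP1 fl/fl with CD11c-cre). CD11c-cre acts in cells that express CD11c, so deletion may differ between the cells of a sort. The labels do not say how many mice went into a library, so p-values measure only the spread between these libraries.

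cDCs fall into cDC1s, which take up dead cells and cross-present antigen to CD8+ T cells, and cDC2s, which present mainly to CD4+ T cells. IRF8, BATF3 and ID2 drive the cDC1 fate, whereas IRF4, KLF4, ZEB2 and, in the spleen, NOTCH2 signalling serve the cDC2 fate. cDC2s are usually recognised by CD11b (Itgam) and SIRPα (Sirpa). Splenic cDC2s hold an ESAMhigh CD4+ subset that depends on NOTCH2 and an ESAMlow subset with more monocyte-like genes. Flt3L expands the EPs, which give rise mainly to cDC1s, so the question here was what level of the cDC2 program these cells held and whether it differed between the genotypes.

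Library totals ran from 14561583 to 15193831 counts. Counts of Topbp1, the gene that Cre deletes, were 1102 and 1143 in WT, 773 in cKO 1 and 1279 in cKO 2, so only cKO 1 lay below WT. These counts are summed over all transcripts of the gene, and the labels do not say which exons are floxed. Whether the gene was deleted in a library was not tested, and directions below refer to the labels. Gate genes were abundant in every library, with 382.6 to 481.3 CPM (counts per 1000000, scaled by TMM) for Kit, which encodes CD117, and 614.3 to 689.9 for Itgax, which encodes CD11c. Xcr1, the chemokine receptor of cDC1s, stood at 626.2 to 753.2 CPM. For 4 of the 5 gate genes (Kit, Cd24a, Xcr1, Flt3) both libraries labelled cKO lay below both WT, against 20.8% of all genes. Kit had 481.3 and 475.1 CPM in WT and 394.8 and 382.6 in the libraries labelled cKO. Flt3 had 717.1 and 698.8 against 662.7 and 614.1. Itgax lay above in both, against 22.8% of all genes. The library labelled cKO 2 stood apart: chi-square over its degrees of freedom was 43.1 to 52.6 against the others, where other pairs gave 12.9 to 15.8. The summed CPM of 10 cell cycle genes was 454.8 and 448.1 in WT, 588.7 in cKO 1 and 1680 in cKO 2. In the edgeR quasi-likelihood test, 13 of 12393 genes were called at FDR < 0.05 (0.105%), none of them a gate gene.

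None of the 9 cDC2 genes tested was called at FDR < 0.05 between the genotypes, against that background of 0.105%. All 9 had a log2 fold change above 0, with a median of 0.43, whereas the median over all genes tested was 0.0084. At an unadjusted p under 0.05, Irf4, Sirpa and Clec4a4 were higher in the libraries labelled cKO, 3 of 9 members against 6.95% of all genes in that direction, and none was lower against 3.77%. Both libraries labelled cKO lay above both WT libraries for 6 members (Irf4, Zeb2, Sirpa, Clec4a4, Clec10a and Cd4), under each of the 4 scalings tried, where 22.8% of all genes did so. No tested member lay below in both, against 20.8% of all genes. The members were chosen with earlier results of these data known, so these shares describe them and test nothing. With 2 libraries against 2, the smallest p that an exact permutation test can give is 0.333, so p-values come from the model fitted across all genes.

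**Figure D1:**
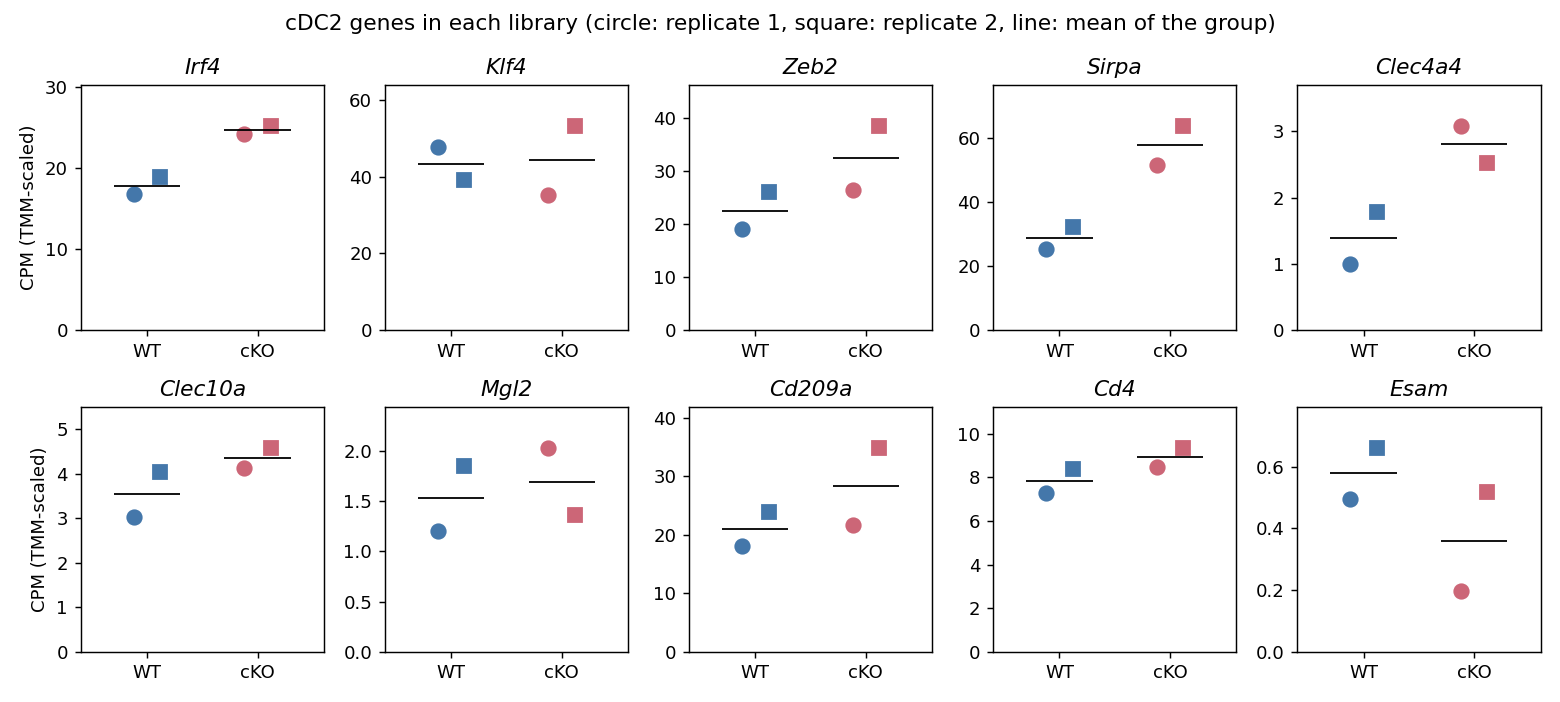
CPM (TMM-scaled, vertical axes from 0) of the 10 cDC2 genes in each library, with circles for replicate 1, squares for replicate 2 and a line at the mean of each group. Sirpa runs from 25.4 and 32.0 CPM in WT to 51.7 and 63.8 in the libraries labelled cKO, whereas the groups of Klf4 and Mgl2 overlap.

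Irf4 encodes a TF that cDC2s need for their survival, migration and antigen presentation. It had 16.8 and 18.9 CPM in WT and 24.2 and 25.2 CPM in the libraries labelled cKO. The groups did not overlap, and replicates lay within 2.2 CPM of each other. The fitted log2 fold change was 0.47 (SE 0.16), 1.39-fold, with FDR = 0.364 by edgeR. Leaving out any 1 library kept it between 0.39 and 0.55. Set against Irf8, its family member in cDC1s, Irf4 had 0.686 and 0.750 counts per 100 Irf8 counts in WT, 0.986 in cKO 1 and 1.31 in cKO 2. Part of the last ratio lay in Irf8 itself, which had 1933 CPM in cKO 2 and 2442 to 2514 CPM in the other libraries.

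Zeb2, a zinc-finger repressor that opposes the cDC1 fate by holding down Id2, had 19.0 and 26.1 CPM in WT and 26.4 and 38.5 in the libraries labelled cKO. The lower cKO library and the higher WT library were thus nearly equal. The log2 fold change was 0.53 (SE 0.23, FDR = 0.474), and it fell to 0.22 without cKO 2. Id2 stayed between 588.9 and 631.9 CPM in all 4 libraries. Zeb2os, which is transcribed across the Zeb2 locus from the opposite strand, had 17 to 28 counts per library beside the 269 to 596 of Zeb2, and whether strand was used in the counting is not given in the sources used here. Zeb1, the nearest relative of Zeb2, had 102.9 to 117.2 CPM, and its log2 fold change was −0.02 (SE 0.12).

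Klf4 is needed for the cDC2s that drive type 2 T helper responses. It had 47.7 and 39.2 CPM in WT, 35.4 in cKO 1 and 53.4 in cKO 2. The libraries labelled cKO were the lowest and the highest of the 4, and the log2 fold change was 0.03 (SE 0.21, FDR = 0.974). Its sign turned without cKO 2 (−0.30) and without WT 2 (−0.11). Klf2, a related TF of quiescent and migrating lymphocytes, had 122.7 and 133.0 CPM in WT, 97.8 in cKO 1 and 61.6 in cKO 2 (log2 fold change −0.68, SE 0.21, FDR = 0.346).

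Sirpa had the smallest p of the members. It encodes SIRPα, an inhibitory receptor for CD47 that is present on cDC2s and also on monocytes, macrophages and neutrophils. Its level was 25.4 and 32.0 CPM in WT and 51.7 and 63.8 CPM in the libraries labelled cKO. The lower library labelled cKO held 1.61 times the level of the higher WT library. The log2 fold change was 1.01 (SE 0.17), 2.01-fold, with FDR = 0.182 by the edgeR quasi-likelihood test. Sirpa was called by the edgeR likelihood ratio test (FDR = 0.000296), which called 1.89% of all genes, and by the DESeq2 Wald test (FDR = 0.0012), which called 1.25%. limma-voom did not call it (FDR = 0.267).

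The call on Sirpa also turned on single libraries. Without WT 1 Sirpa had a log2 fold change of 0.85 and without WT 2 one of 1.18, and it was called in neither fit. Without cKO 1 the quasi-likelihood test gave a log2 fold change of 1.15 with FDR = 1.04e-05, and without cKO 2 it gave 0.84 with FDR = 0.00566. Those fits assume that the lone library left varies like the others, and they called 21.2% and 1.39% of all genes. Irf4, Zeb2 and Cd209a were also called without cKO 1, and no other member was called without cKO 2. Per 100 counts of Xcr1, Sirpa had 3.46 and 4.25 counts in WT, 8.25 in cKO 1 and 9.09 in cKO 2. The gap was narrower against Itgax, with 4.09 and 5.21 counts per 100 in WT and 7.49 and 9.83 in the libraries labelled cKO.

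The signal regulatory proteins of the Sirpb1 family share the extracellular fold of SIRPα but signal through an activating adaptor, and their counts are given beside those of Sirpa. Sirpb1a had 19 and 52 counts in WT and 94 and 101 in the libraries labelled cKO (log2 fold change 1.40, SE 0.42, FDR = 0.346). Sirpb1b had 20 and 27 counts against 62 and 66 (1.38, SE 0.34, FDR = 0.307). Sirpb1c had 13 and 28 counts against 33 and 55 (1.04, SE 0.48, FDR = 0.497). None of them was called. For all 3 both libraries labelled cKO lay above both WT libraries, where 22.8% of all genes did so. Sirpa is the more abundant gene by far and shares little exact sequence with the Sirpb1 genes: 2 of its 5103 distinct 31-base words occur in another gene. The stretch of coding sequence with their longest identical run, 32 bases, is shown for Sirpa and Sirpb1a to let a reader see how far the genes can be told apart by a read. It lies within 1 exon in each gene, at chr2:129609081-129609200 (plus strand) for Sirpa and chr3:15416897-15417016 (minus strand) for Sirpb1a in GRCm38 (GENCODE M21). Capitals mark the 17 of 120 bases that differ, and the letters run 5′ to 3′ along the coding strand.
Sirpa: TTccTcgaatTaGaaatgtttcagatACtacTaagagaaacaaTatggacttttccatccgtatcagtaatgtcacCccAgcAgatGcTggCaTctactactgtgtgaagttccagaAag
Sirpb1a: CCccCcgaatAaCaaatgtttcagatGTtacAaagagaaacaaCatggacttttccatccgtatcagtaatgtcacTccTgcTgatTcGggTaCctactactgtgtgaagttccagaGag

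Among the C-type lectins, sequence decides how firmly a count belongs to its gene. Clec10a and Mgl2 encode the galactose-type lectins MGL1 and MGL2 and are neighbours on chromosome 11. Of the 31-base words of their annotated transcripts, 14.8% for Clec10a and 22.6% for Mgl2 occur in another gene, and 419 words are common to both. Their coding sequences hold an identical run of 183 bases, and a read inside it cannot be assigned by sequence. The end of that run and the bases after it are shown, from chr11:70170048-70170249 for Clec10a and chr11:70136563-70136759 for Mgl2 (GRCm38, plus strand, coding bases of 2 exons each). Capitals mark the 4 of 120 bases that differ.
Clec10a: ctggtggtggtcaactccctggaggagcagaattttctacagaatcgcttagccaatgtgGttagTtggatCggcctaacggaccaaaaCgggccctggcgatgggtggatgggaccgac
Mgl2: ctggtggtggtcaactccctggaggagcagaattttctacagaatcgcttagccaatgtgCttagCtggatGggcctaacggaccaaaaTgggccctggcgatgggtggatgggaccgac

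Clec10a had 43 and 61 counts in WT and 63 and 71 in the libraries labelled cKO, and its log2 fold change was 0.30 (SE 0.30, FDR = 0.763). Mgl2 had 17 and 28 counts in WT and 31 and 21 in the libraries labelled cKO (0.15, SE 0.45, FDR = 0.942). For both lectins the fitted change was no larger than its SE, and the direction of Mgl2 turned without WT 1 (−0.13) or without cKO 1 (−0.17). Mgl2 marks dermal cDC2s and, like Clec10a, is also present on alternatively activated macrophages.

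Clec4a4 encodes DCIR2, an inhibitory lectin bound by the antibody 33D1, which marks splenic cDC2s. It had 14 and 27 counts in WT and 47 and 39 in the libraries labelled cKO. The groups did not overlap, but the WT libraries also lay well apart from each other. The log2 fold change was 1.01 (SE 0.43, FDR = 0.465), and it ranged from 0.65 without WT 1 to 1.48 without WT 2. Of its 31-base words, 21.0% occur in another gene, and 145 of 746 occur in Clec4a2, which encodes DCIR. The coding sequences of the pair share an identical run of 163 bases. Its end is shown, from chr6:122991855-123004106 for Clec4a4 and chr6:123125065-123128049 for Clec4a2 (GRCm38, plus strand, coding bases of 2 exons each), with the 7 of 120 bases that differ in capitals.
Clec4a4: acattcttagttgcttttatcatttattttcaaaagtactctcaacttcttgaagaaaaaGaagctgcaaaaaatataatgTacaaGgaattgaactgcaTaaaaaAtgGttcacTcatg
Clec4a2: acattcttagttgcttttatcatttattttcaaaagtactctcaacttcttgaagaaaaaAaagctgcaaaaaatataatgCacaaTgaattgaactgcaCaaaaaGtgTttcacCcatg

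The other lectins of this cluster had values on the same side as Clec4a4. Clec4a2 had 129 and 103 counts in WT and 212 and 155 in the libraries labelled cKO (log2 fold change 0.59, SE 0.26, FDR = 0.474). Clec4a3 had 43 and 70 against 97 and 128 (0.93, SE 0.31, FDR = 0.361), and Clec4a1 had 113 and 162 against 218 and 243 (0.68, SE 0.22, FDR = 0.352). None was called, and in these 3 genes, as in Clec4a4, both libraries labelled cKO lay above both WT libraries, where 22.8% of all genes did so. Of the 12 paralogs of members that were tested, 6 lay above in both, and 3 lay below in both, against 20.8% of all genes. Clec4b1 had 22 and 15 against 34 and 17 counts, and its groups overlapped. These lectins are also expressed by monocytes, macrophages or neutrophils.

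Cd209a encodes a mouse homologue of the pathogen receptor DC-SIGN and marks monocyte-like cDC2s and monocyte-derived DCs. It had 18.0 and 23.95 CPM in WT, 21.6 in cKO 1 and 34.9 in cKO 2. The library labelled cKO 1 lay between the WT libraries, and only cKO 2 lay above them. The log2 fold change was 0.43 (SE 0.25, FDR = 0.593), and it was 0.03 without cKO 2. No 31-base word of Cd209a occurs in another gene of the reference. How reads with mismatches were assigned within the Cd209 family is not given in the sources used here. The relatives of Cd209a were sparse, Cd209e with 61 and 69 counts in WT and 48 and 36 in the libraries labelled cKO (log2 fold change −0.69, SE 0.32, FDR = 0.492) being the most abundant of them.

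Cd4, the T helper coreceptor that most splenic cDC2s of the mouse also carry, had 7.28 and 8.40 CPM in WT and 8.47 and 9.38 in the libraries labelled cKO. The gap between the groups was 0.065 CPM. The log2 fold change was 0.19 (SE 0.22, FDR = 0.807). Cd3g, a subunit of the T cell receptor complex, had 13 counts in each WT library, 41 in cKO 1 and 24 in cKO 2. The groups overlapped in its sister chains. Cd3e had 7 and 5 counts in WT, 24 in cKO 1 and 7 in cKO 2, and Cd3d had 9, 2, 23 and 6. Esam, an adhesion molecule of the NOTCH2-dependent cDC2s and of endothelium, had 7 and 10 counts in WT and 3 and 8 in the libraries labelled cKO. Esam did not pass the filter on low counts and was not tested. Pecam1, an endothelial gene that DCs and other leukocytes also express, had 676 to 795 counts per library, and Cdh5, the endothelial cadherin, had 11 to 24.

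Levels can be compared between genes only per length, so CPM were divided by the length of a matched reference transcript in kb. The CPM were summed over all transcripts of a gene, but the length was that of 1 transcript in every library. That transcript had no count for Zeb2 in WT 2 and for Clec10a in cKO 1, so close ranks may depend on the transcript chosen. In WT, Klf4 (14.4 ± 1.98 CPM per kb, mean ± SD, n = 2) and Cd209a (14.2 ± 2.83) came first and overlapped. Sirpa followed at 7.21 ± 1.18, then Zeb2 (4.01 ± 0.888) and Irf4 (3.74 ± 0.313), which overlapped. Cd4 (2.52 ± 0.256), Clec10a (2.36 ± 0.471) and Clec4a4 (1.79 ± 0.726) formed a run in which each neighbour overlapped the next. Mgl2 (0.963 ± 0.29) and Esam (0.31 ± 0.063) came last, each apart from the gene above it. In the libraries labelled cKO, Cd209a (19.1 ± 6.36), Klf4 (14.7 ± 4.2) and Sirpa (14.5 ± 2.15) overlapped at the top, Clec4a4 (3.61 ± 0.513) stood above Clec10a and Cd4, and Mgl2 and Esam were again last.

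Of the 14 cDC1 genes, 12 lay above all 10 cDC2 genes in every library on this scale. The exceptions were Nfil3, a TF upstream in the cDC1 fate, with 2.19 to 3.21 CPM per kb, and Itgae, with 11.4 to 23.4. Among the others, Irf8 had 678.9 to 883.0 CPM per kb over the 4 libraries, Xcr1 140.6 to 169.1, Clec9a, a receptor for dead cells, 142.8 to 171.2, Batf3 86.2 to 147.8 and Cadm1, an adhesion molecule of cDC1s, 46.0 to 79.8. The highest value of any cDC2 member in any library was 23.6 CPM per kb, for Cd209a in cKO 2. Notch2, a gene of the cDC2 fate outside the 10, had 44.0 to 54.3 CPM per kb. Cd24a, which encodes the CD24 of the gate, is among the 12 and had 416.2 to 535.1 CPM per kb. The sort kept CD24+ cells, whereas the paper regards the XCR1−CD24− EPs as probable cDC2s. The order of cDC1 over cDC2 genes therefore cannot be told apart from the gate, and it does not describe EPs as a whole. In such bulk samples, fewer cells of a type and less RNA per cell cannot be told apart.

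**Figure D2:**
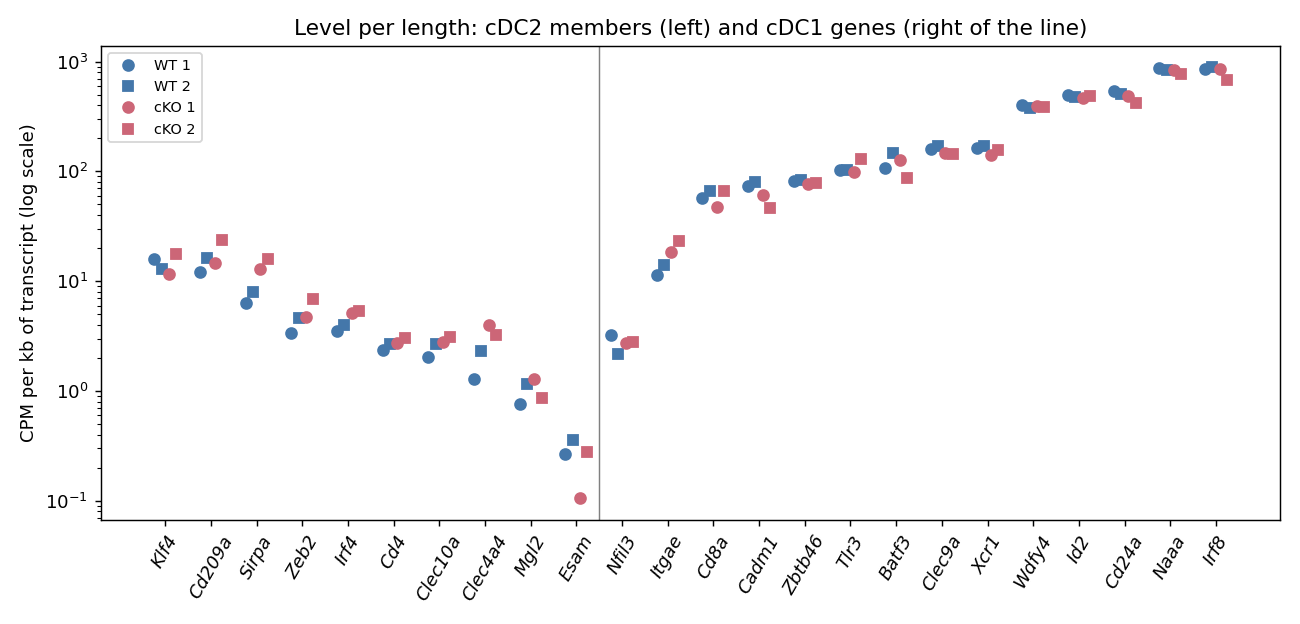
CPM per kb of a matched transcript (log scale) for the 10 cDC2 genes, ordered by their WT mean, and for the 14 cDC1 genes to the right of the line, with WT in blue, cKO in red, circles for replicate 1 and squares for replicate 2. No cDC2 gene exceeds 23.6 CPM per kb, and the cDC1 genes other than Nfil3 and Itgae lie at 46.0 or higher.

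Of the 14 cDC1 genes, none was called, 10 had a log2 fold change below 0, and the median was −0.11. Of all 12393 genes tested, 6048 had a value below 0. Both libraries labelled cKO lay below both WT libraries in 6 of the 14, against 20.8% of all genes. They lay above both in 1, against 22.8% of all genes. Cadm1 had 323.8 and 354.5 CPM in WT and 272.1 and 204.2 in the libraries labelled cKO (log2 fold change −0.51, SE 0.16, FDR = 0.347). Itgae, which encodes the integrin CD103, went the other way, with 43.7 and 54.5 CPM in WT and 71.4 and 89.8 in the libraries labelled cKO (0.71, SE 0.17, FDR = 0.307). Batf3 had 85.9 and 118.4 CPM against 101.9 and 69.1, and its groups overlapped.

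The wider cDC2 pathway was described by 29 companion genes, none of which was called at FDR < 0.05 by the quasi-likelihood test. For the 15 regulators and signalling genes the median log2 fold change came to 0.07, and 10 values lay above 0 and 5 below. NOTCH2 signalling, which the CD4+ ESAMhigh cDC2s need, was not itself measured, and only mRNA of its genes can be given. Notch2 had 570.4 and 490.0 CPM in WT and 461.8 and 524.5 in the libraries labelled cKO (−0.10, SE 0.14). Rbpj, the DNA-binding partner of the NOTCH receptors, had a log2 fold change of −0.02 (SE 0.14). The target genes Dtx1 and Hes1 had 0.07 (SE 0.43) and 0.31 (SE 0.32). None of these values exceeded its SE, but Dtx1 had only 18 to 25 counts per library, and the SEs of both targets were wide. Relb, an NF-κB subunit that splenic cDC2s need, had 52.6 and 62.3 CPM against 64.5 and 71.3 (0.24, SE 0.14, FDR = 0.588).

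At an unadjusted p under 0.05, 1 of the 15 regulators was higher and 1 was lower, close to the background of 6.95% and 3.77% of all genes. Tbx21, which encodes T-BET, a TF of one cDC2 subset and of NK and T cells, had 17 and 19 counts in WT and 49 and 36 in the libraries labelled cKO (log2 fold change 1.17, SE 0.40, FDR = 0.377). Irf2, which CD4+ splenic DCs need, had 195.9 and 189.5 CPM against 158.3 and 150.9 (−0.32, SE 0.11, FDR = 0.380). Spi1, which encodes PU.1, had a log2 fold change of 0.05 (SE 0.13).

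For the 14 companion genes of the surface and other functions that median came to 0.59. Of them, 13 had a value above 0, and both libraries labelled cKO lay above both WT libraries in 8, against 22.8% of all genes. At p under 0.05 by edgeR, 6 were higher, against 6.95% of all genes. This list was also chosen with earlier results of these data known, so these shares are only descriptive. Itgam, the integrin chain CD11b that cDC2s share with neutrophils, monocytes and macrophages, had 21.6 and 16.7 CPM in WT, 44.1 in cKO 1 and 77.7 in cKO 2. Its log2 fold change was 1.67 (SE 0.27, FDR = 0.153), with 1.20 without cKO 2 and 2.02 without cKO 1. S100a4, a calcium-binding protein of motile myeloid cells, had 27.0 and 26.9 CPM in WT and 47.3 and 44.5 in the libraries labelled cKO (0.77, SE 0.13, FDR = 0.196). Itgam and S100a4 were called by the DESeq2 Wald test (FDR = 9.39e-07 and 0.0163) and by the edgeR likelihood ratio test, as Sirpa was. Clec7a, the β-glucan receptor Dectin-1, had 68 and 141 counts in WT and 188 and 237 in the libraries labelled cKO (0.97, SE 0.32, FDR = 0.360). Leaving out 1 library gave 0.57 to 1.51 for Clec7a, the lowest without WT 1, and Clec7a was called without cKO 1 (FDR = 0.00593 by edgeR). Gpr183, the oxysterol receptor that positions splenic cDC2s, had 12.4 and 13.2 CPM against 16.5 and 22.7 (0.62, SE 0.21, FDR = 0.364), and leaving out 1 library gave 0.36 to 0.83.

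**Figure D3:**
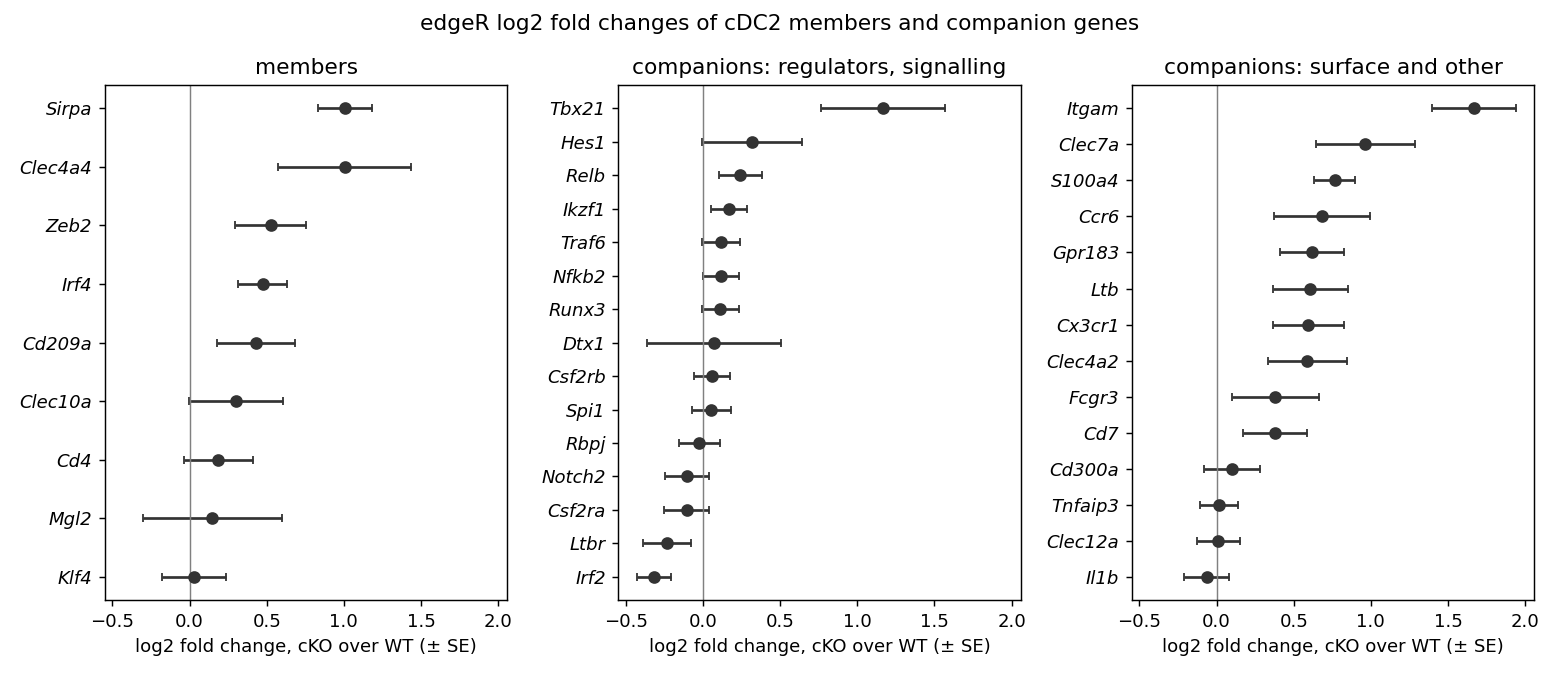
Log2 fold change of the libraries labelled cKO over WT (edgeR, horizontal axis, bars ± SE) for the 9 cDC2 members tested, 15 regulators and signalling genes and 14 surface and other genes. The surface panel reaches 1.67 for Itgam, whereas the regulators other than Tbx21 lie between −0.32 and 0.31.

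The files count reads per annotated transcript, and several members are spread over many transcripts. Sirpa had 8 transcripts with a count, 3 of them in every library. NM_007547.4 had 175 and 216 counts in WT and 256 and 361 in the libraries labelled cKO, NM_001291022.1 had 60 and 109 against 189 and 245, and NM_001291020.1 had 59 and 98 against 80 and 73. NM_001355158.1, which was at 0 in 1 library, had 63 and 0 counts in WT and 168 and 197 in the libraries labelled cKO. Fitted on its most abundant transcript alone, the log2 fold change of Sirpa was 0.59 in place of 1.01. Irf4 had 2 transcripts in every library, NM_001347508.1 with 151 and 150 counts against 216 and 210 and XM_036157859.1 with 74 and 115 against 153 and 171. Both had more counts in the libraries labelled cKO. Its remaining transcript with a count, XM_036157860.1, went the other way, with 12 and 20 counts in WT and 0 and 9 in the libraries labelled cKO.

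For Zeb2 and Clec10a the split over transcripts changed between libraries of 1 group. NM_015753.5 of Zeb2 had 210 counts in WT 1, 0 in WT 2, and 254 and 229 in the libraries labelled cKO, while NM_001355291.2 had 219 counts in WT 2 and 0 in the others. NM_010796.3 of Clec10a had 43, 47, 0 and 65 counts in WT 1, WT 2, cKO 1 and cKO 2, and NM_001204252.1 had 0, 14, 63 and 6. The sums per gene did not jump in this way. On the most abundant transcript alone the sign of Clec10a turned (−0.54), as did that of Cd4 (−0.06), and the log2 fold change of Zeb2 was 1.08 in place of 0.53.

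**Figure D4:**
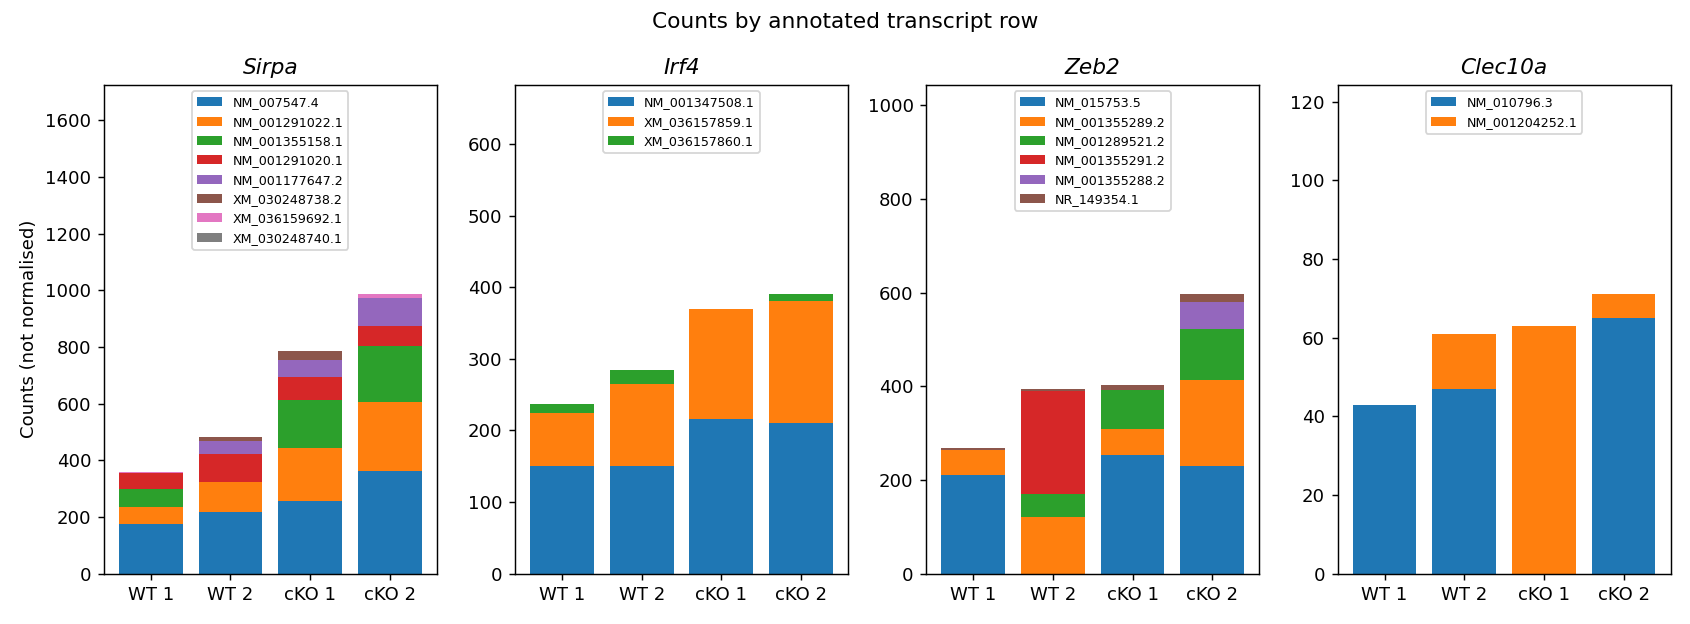
Counts (not normalised, stacked bars from 0) of each annotated transcript of Sirpa, Irf4, Zeb2 and Clec10a in the 4 libraries. The transcript of Clec10a that holds 43, 47 and 65 counts in the other libraries is at 0 in cKO 1, where the second transcript holds 63.

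Markers of other cells were set beside the members, in lists also chosen with earlier results of these data known. Of 11 neutrophil markers, 5 were called higher (S100a8, S100a9, Ltf, Lcn2 and Ngp), where 0.105% of all genes were called in either direction. Both libraries labelled cKO lay above both WT libraries in 9 of the 11, against 22.8% of all genes. The summed level of the 11 was 1479 and 1224 CPM in WT and 3179 and 2420 CPM in the libraries labelled cKO. S100a9 alone had 3131 and 3014 counts against 8777 and 9196 (log2 fold change 1.48, FDR = 0.00762), and no neutrophil marker was at 0 in any library. The 2 markers whose groups overlapped were the granule genes Mpo, with 8464 and 6391 counts in WT, 13311 in cKO 1 and 3014 in cKO 2, and Elane, with 1392, 993, 1973 and 529, both of which early granulocyte and monocyte progenitors also express. Neutrophils carry Sirpa, Itgam and Clec4a2, and their part in those results was not tested. All 6 mast cell and basophil markers had log2 fold changes above 0, none was called, and their sum was 24.9 and 24.02 CPM against 78.5 and 40.8, with Prss34 at 122 and 123 counts in WT and 457 and 185 in the libraries labelled cKO.

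Monocyte and macrophage markers, which share Sirpa, Cd209a and the Clec4a lectins, summed to 609.9 and 583.8 CPM in WT, 694.4 in cKO 1 and 533.4 in cKO 2. Of 10 tested, none was called, and 6 had log2 fold changes above 0. Ccr2, the most abundant, had 7225 and 7344 counts against 8810 and 6541. Both libraries labelled cKO lay above both WT libraries in 3 of the 10, against 22.8% of all genes. They lay below both in 4 of the 10, against 20.8% of all genes. Csf1r, the receptor for M-CSF, was among the 3, with 275 and 342 counts against 456 and 517 (log2 fold change 0.59, SE 0.16, FDR = 0.309). T cell markers, which bear on Cd4, summed to 15.8 and 12.2 CPM in WT, 26.8 in cKO 1 and 18.9 in cKO 2, with none of 6 tested called. B cell markers summed to 74.8 and 68.4 CPM in WT and 86.2 and 86.5 in the libraries labelled cKO, NK cell markers to 7.14 and 6.22 against 12.1 and 7.76, and erythroid markers to 10.4 and 9.72 against 13.65 and 13.45. Platelet and megakaryocyte markers summed to 4.31 and 3.77 CPM in WT and 9.39 and 4.53 in the libraries labelled cKO, so in these 4 lists both libraries labelled cKO were the higher. In pDC markers both were the lower, with 201.7 and 207.9 CPM in WT against 182.3 and 175.9. The groups overlapped in plasma cell markers (36.5 and 20.6 CPM against 51.7 and 31.9), endothelial markers (58.7 and 57.6 against 54.0 and 75.0) and stem and progenitor markers (29.5 and 29.2 against 31.5 and 17.5). In these 8 lists only Cox6a2, a pDC marker, was called, with 0 and 3 counts in WT and 183 and 168 in the libraries labelled cKO. Markers with no count in some library were Cox6a2, Klk1, Tnfrsf17, Tek, Mecom, Pf4, Gp9, Ppbp and Gp1bb. All 10 cell cycle genes were higher at an unadjusted p under 0.05 by edgeR, against 6.95% of all genes, and none was called. Mcm5 had 457 and 591 counts in WT, 964 in cKO 1 and 2237 in cKO 2. The part of any of these cells, and of the cell cycle, in the values of the cDC2 genes was not tested.

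**Figure D5:**
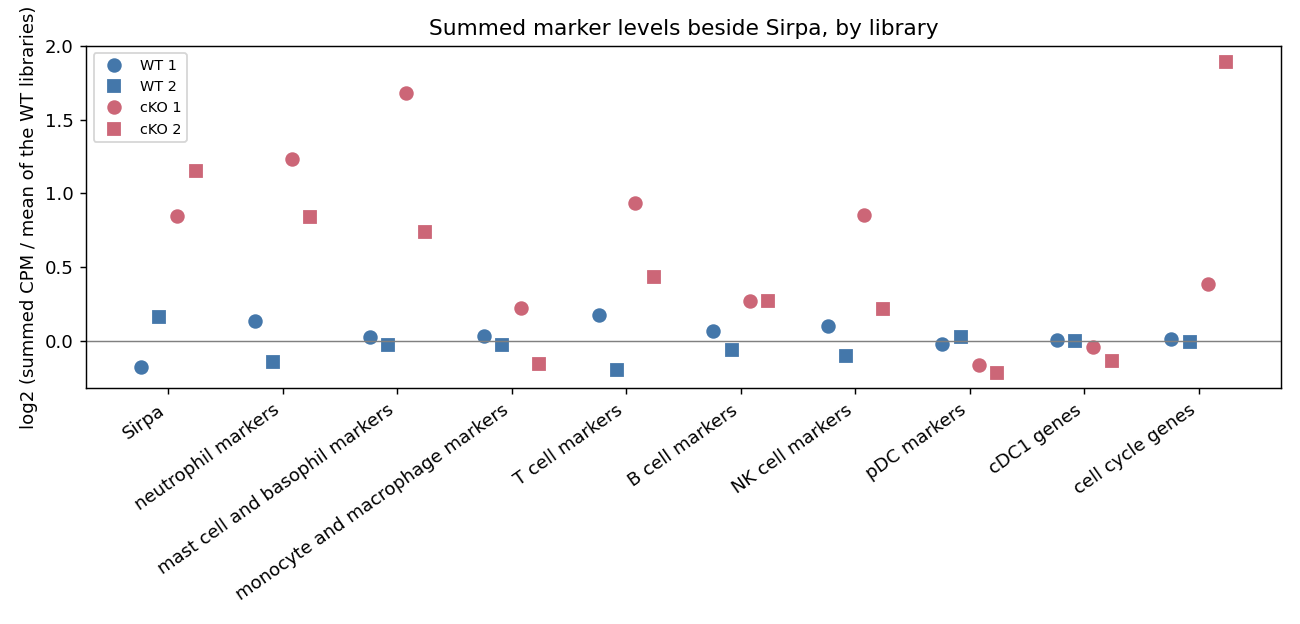
Log2 of the summed CPM of each marker list over its mean in the WT libraries (vertical axis), by library, with Sirpa alone at the left, WT in blue, cKO in red, circles for replicate 1 and squares for replicate 2. Neutrophil markers (3179 and 2420 CPM against 1479 and 1224) stand above WT in both libraries labelled cKO, as Sirpa does, whereas cell cycle genes stand highest in cKO 2 (1680 CPM).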

How the data were processed

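Bulk RNA-seq of 4 libraries of splenic CD24+ EPs was examined. The authors deposited whole-number read counts for 137259 transcripts per library, not normalised. The submitters' processing notes name fastp, STAR, Salmon, GATK and GRCm39, without roles or versions, and the rule for reads shared by several transcripts is not given in the sources used here. The labels name RNAiso Plus for the RNA and the methods a RNeasy kit. Counts were summed per gene symbol, rows without an accession included (2143289 counts in all). The 12393 genes that passed filterByExpr were compared by glmQLFit and glmQLFTest of edgeR 4.0.16 with TMM scaling and Benjamini–Hochberg adjustment over all of them, after the procedure was tested on simulated data. The SE was obtained by dividing a log2 fold change by the root of its F statistic. The common dispersion was 0.0230. DESeq2 1.42.0, limma 3.58.1, R 4.3.3 and Python 3.11.15 were also used. No 2 libraries were duplicates (chi-square per degree of freedom at least 12.9). Sequences, lengths and shared words come from GENCODE M21 (GRCm38). All 10 members matched a transcript.

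The members and the lists of genes were chosen with earlier results of these data known. The share of a list set beside that of all genes is therefore descriptive. Genes named are the members, Topbp1, the gate genes, paralogs of members and, of each list, the genes called and those with the 4 smallest p-values (for markers of other cells, the 2 most abundant in WT). Cd3g, Cd3e, Cd3d, Cdh5, Csf1r, C1qa, C1qb, Vcam1, Cd14, Elane, Zeb2os and the genes listed at 0 lie outside the rule. So do Hes1, Dtx1, Rbpj, Notch2, Spi1, Csf2ra, Csf2rb, Clec12a, Cd300a, Tnfaip3, Batf3, Nfil3, Irf8 and Id2. The values of all these genes had been seen when they were chosen. Some items of the lists are not reported here. Alternatives tried were other scalings, tests and filters, a replicate block, the most abundant transcript alone and leaving out each library. Any precision read from a count covers counting error alone, because PCR copies were not told apart here.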

Additional observations from a re-analysis of the deposited data

How the results depend on the processing

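No cDC2 member and no companion gene was called with DESeq2 size factors, upper quartile scaling, limma-voom, no filter on low counts or at least 10 counts in every library. The DESeq2 Wald test called 1 member, 2 companion genes, 14 genes of the other lists and 137 genes in all, and the likelihood ratio test called 1, 2, 15 and 234. Replicate numbers do not pair the libraries (correlation of same-numbered deviations −0.0147). With a replicate block, 1 member, 3 companion genes, 24 genes of the other lists and 504 in all were called, the member being Sirpa and the companion genes Itgam, S100a4 and Clec7a (FDR = 0.00922 by edgeR). Leaving out each library in turn called 0 to 4 members, 0 to 7 companion genes, 1 to 36 genes of the other lists and 1 to 2628 in all, the most without cKO 1; the cause was not tested.

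The sign of the log2 fold change turned in 6 of 117 values of the members and 13 of 348 of the companion genes. Leaving out a library gave −0.30 to 0.30 for Klf4 and −0.17 to 0.48 for Mgl2. It gave −0.22 to 0.0091 for Notch2, −0.16 to 0.091 for Rbpj, −0.18 to 0.28 for Dtx1, −0.043 to 0.60 for Hes1, −0.046 to 0.14 for Spi1, −0.27 to 0.067 for Csf2ra, −0.0066 to 0.11 for Csf2rb, −0.17 to 0.16 for Clec12a, −0.20 to 0.34 for Cd300a and −0.046 to 0.070 for Tnfaip3. On the most abundant transcript alone, Clec10a had −0.54 and Cd4 had −0.061. At library totals of 14561583 to 15193831, members under 50 counts (Clec4a4, Mgl2 and Esam) had SEs of 0.43 or more or were not tested.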

Other observations

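Itgam, the companion gene with the largest log2 fold change, had 2 transcripts with a count. NM_001082960.1 had 305 and 253 counts in WT and 390 and 614 in the libraries labelled cKO. NM_008401.2 had 0 counts in both WT libraries, 282 in cKO 1 and 587 in cKO 2. Transcripts of a gene overlap, so the split depends on how shared reads were assigned. The transcript with counts in all 4 libraries was by itself higher in both libraries labelled cKO. It was not tested alone.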
